A study of Mus musculus with 6 samples.

Results

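The genes described here make the sugar donors and the lipid-linked oligosaccharide of N-glycosylation. They were 31 genes taken by symbol from a list, and all 31 were among the 55291 genes of the deposited table. All 31 also averaged 10 normalised counts or more, as 13199 genes in all did, and these were tested. RNA was sequenced from LLC cells, a Lewis lung carcinoma line of mouse lung cancer cells. Calr KO cells had received plasmids for Cas9 and a guide RNA against Calr, which encodes the ER chaperone calreticulin, and control cells, labelled WT, had received Cas9 with a control guide. Both groups were otherwise untreated, grown for 10 days after plasmid delivery, seeded in 6-well plates and collected after 48 hours, with 3 libraries per group. The design text describes 1 edited population per group divided over wells and names no clone, so the p-values measure the spread between wells and not between independent knockouts.

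N-glycans are built on dolichol, a long polyisoprenoid lipid of the ER membrane, before they are moved as a block onto new proteins by oligosaccharyltransferase. Sugars are first activated in the cytosol as UDP-GlcNAc and GDP-mannose. The early sugars are added on the cytosolic face of the ER membrane, and after the lipid is flipped the later mannoses and the glucoses are added in the lumen from dolichol-phosphate mannose and dolichol-phosphate glucose. The terminal glucoses are later trimmed to the form that the lectin chaperones calreticulin and calnexin bind, so the pathway supplies the ligand of the protein whose gene was targeted here.

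The libraries summed to between 14040692 and 14099985 normalised counts, which corresponds to an estimated 13571210 to 14918661 reads. Calr had 4467, 4216 and 4453 normalised counts in the Calr KO libraries and 10711, 10202 and 11047 in the controls. Transcript thus remained in the Calr KO libraries, and mRNA level does not measure the protein. Whether that transcript came from edited or unedited cells cannot be told from these values. The mitochondrial share of the counts was 2.89% to 2.97% in Calr KO and 2.78% to 2.80% in control libraries, without overlap, and its part in the results was not tested. Of 6 general epithelial markers only Krt8 and Krt18 reached a mean of 10, and Epcam and Krt19 were listed at 0 in all libraries. Their summed level was 4961 to 5241 in Calr KO and 4632 to 4932 in control, without overlap. Krt8 and Krt18 taken singly each overlapped between the groups. Of 6 lung epithelial markers none reached that mean, and Nkx2-1, Sftpc, Sftpa1 and Scgb1a1 were listed at 0 throughout. The summed markers of leukocytes (185 to 254 in Calr KO, 181 to 227 in control), endothelium (57.0 to 66.5 and 47.7 to 70.6) and fibroblasts (2123 to 2470 and 1982 to 2450, mostly Pdgfra) overlapped between the groups. Taken singly, fibroblast Dcn (mean 31.9 in Calr KO and 15.5 in control) and endothelial Cdh5 (16.7 and 3.58) lay entirely higher in Calr KO. Neither gene passed in limma after adjustment over all genes (adjusted p = 0.312 and 0.574). The Cdh5 mean rested largely on Calr KO replicate 3, at 37.4. The other tested markers of these lists overlapped. Of the leukocyte markers, Adgre1 and Cd3e were at 0, and Ptprc had at most 6.12 normalised counts in any library. Most of the leukocyte sum came from Cd14 (mean 130 in Calr KO and 126 in control) and Cd68 (79.0 and 68.0).

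None of the 31 genes passed the test. By limma on log2(normalised count + 1), with p-values adjusted by Benjamini-Hochberg across the 13199 genes and called under 0.05, 0 members were called higher and 0 lower, where 0.28% of all tested genes were called. The smallest adjusted p values among the members were 0.157 for Nus1 and 0.243 for Alg12. At an unadjusted p under 0.05 there were 4 members, Nus1, Alg12, Dpm2 and Mpi, which is 12.9% of the 31 against 8.88% of all tested genes. On the higher side were 3, beside 4.6% of all tested genes, and on the lower side 1, beside 4.28%. The 3 Calr KO libraries lay entirely above or below the 3 controls in 6 members, or 19.4%, against 14.8% of all tested genes. These were Nus1, Alg12, Dpm1 and Dpm2 on the higher side, with 7.57% of all tested genes there, and Mpi and Alg2 on the lower side, with 7.28%. Both shares were near the background.

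**Figure D1:**
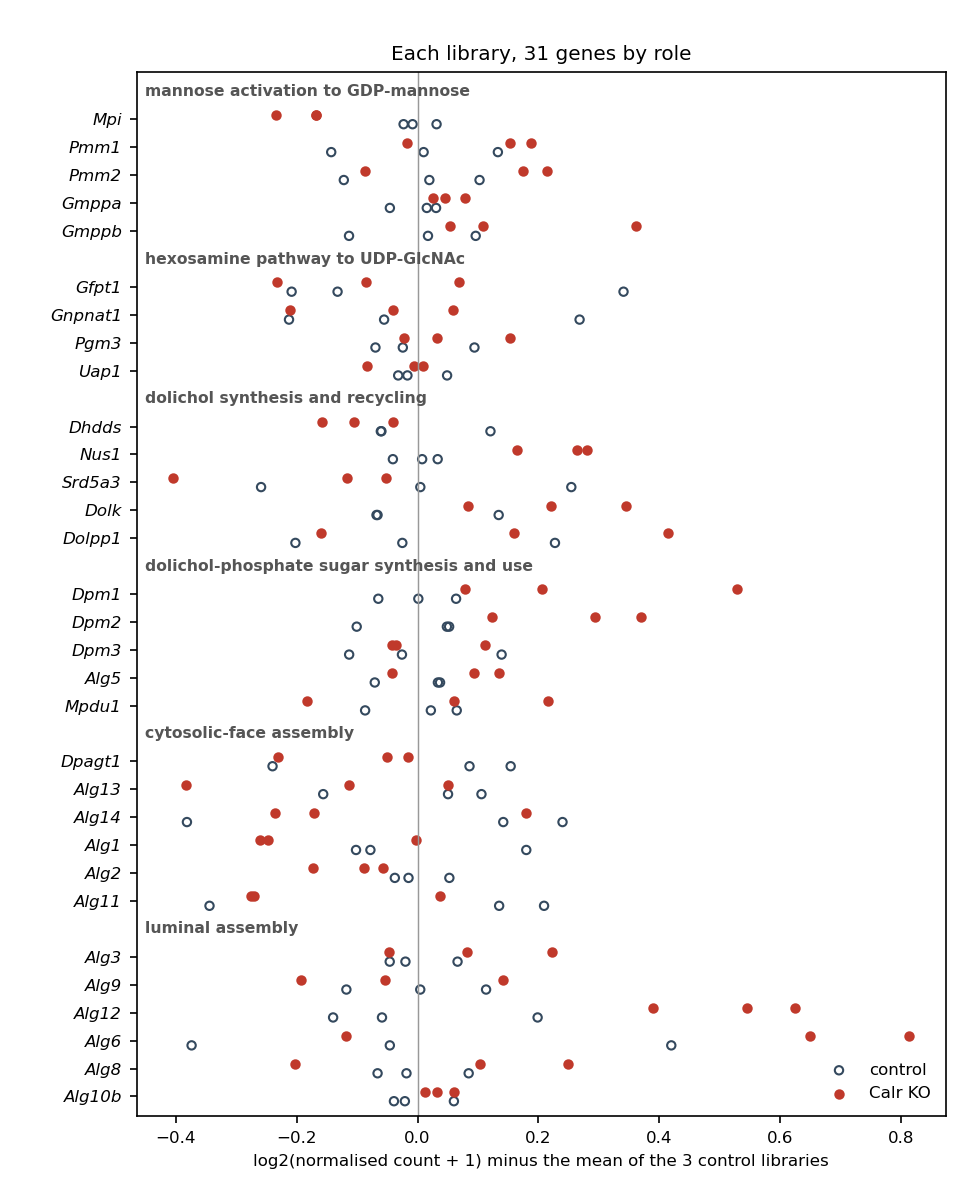
Each point is 1 library, placed at its log2(normalised count + 1) minus the mean of the 3 control libraries, for 31 genes in 6 role groups (filled, Calr KO, open, control). Filled points stand clear of open points on the right for Nus1, Dpm1, Dpm2 and Alg12 and on the left for Mpi and Alg2, and the points of Gfpt1, Alg6 and Alg11 are widely spread within a group.

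The intervals give a range for the change of each gene taken alone, from the spread between wells and not between independent knockouts. In 25 of the 31 genes the whole 95% interval of the log2 change lay between -0.5 and 0.5, so changes of more than 1.41-fold in either direction lay outside it. The intervals of Srd5a3, Dolpp1, Dpm1, Alg11, Alg12 and Alg6 reached past that range. The median change was 0.03 on the log2 scale, beside 0.00036 for all tested genes, with 18 members above 0 and 13 below. Summed over the 31 genes, the Calr KO libraries held 0.112%, 0.108% and 0.110% of all normalised counts and the controls 0.106%, 0.107% and 0.110%, which overlap.

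**Figure D2:**
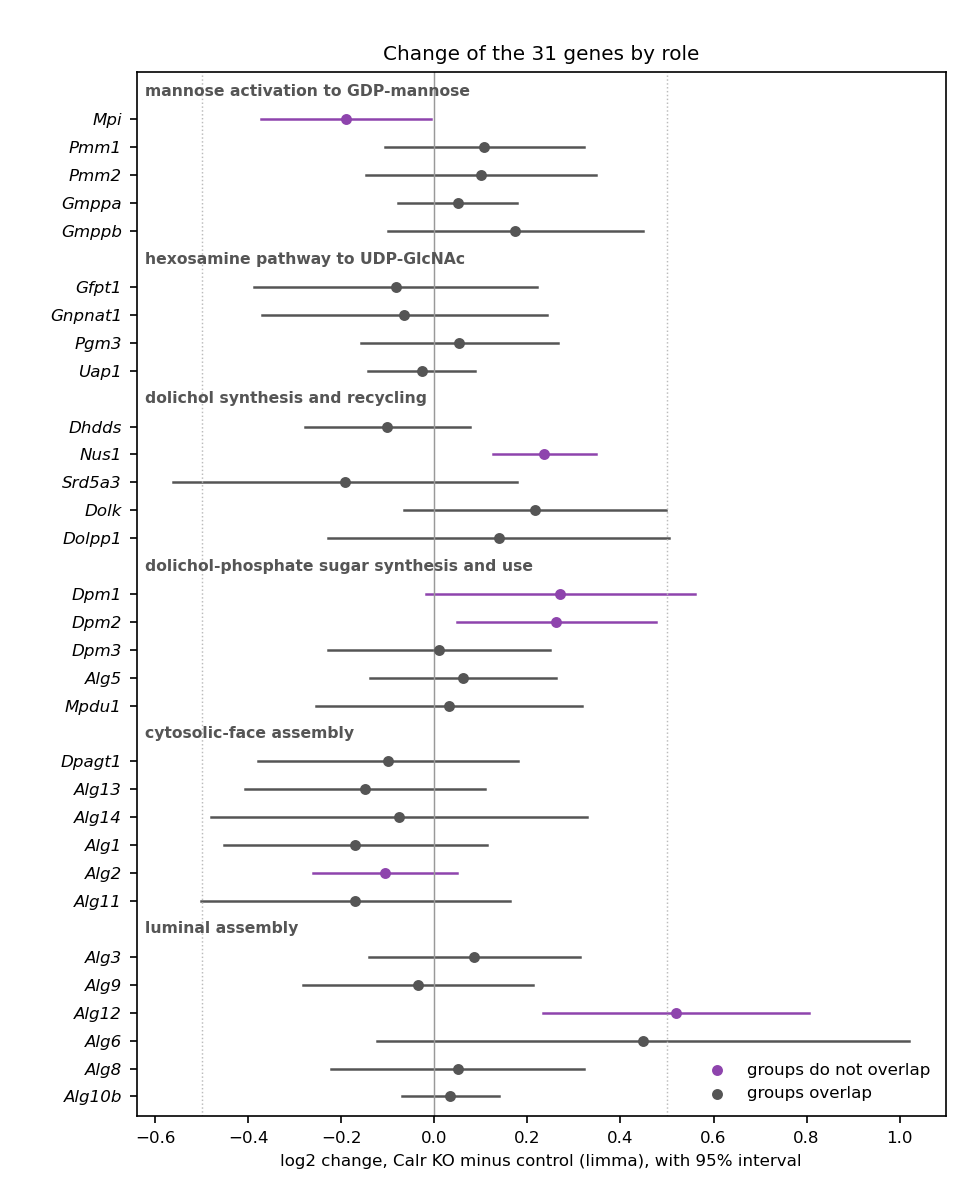
Points are log2 changes of Calr KO over control from limma and bars are 95% intervals, for 31 genes in 6 role groups, with dotted lines at -0.5 and 0.5. The interval of Alg12 reaches from 0.23 to 0.81 and that of Nus1 from 0.13 to 0.35, and 25 of the 31 intervals stay between the dotted lines.

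The member with the largest estimated change was Alg12, and of the members with a promoter window it was the only 1 with an ER stress response element. Alg12 (ENSMUSG00000035845.17, a protein-coding gene on chromosome 15, minus strand, from 88805244 to 88819318 in GRCm38) encodes the luminal mannosyltransferase that opens the last mannose branch of the lipid-linked glycan. Its start lies 328 bases from that of Creld2, which is read in the opposite direction and encodes a secreted ER stress-responsive protein, and the annotated exons of the pair do not overlap. The region between the starts holds an ER stress response element (ERSE), a composite motif known to be bound by NF-Y together with ATF6. The motif searched was CCAAT, 9 bases of any kind and CCACG, on both strands of RefSeq promoter windows on GRCm38.p6, from 250 bases before to 50 bases after each start. Windows were found for 26 of the 31 members, and Alg2, Alg11, Dpagt1, Gmppb and Gnpnat1 had none. The motif was in 1 of the 26, that of Alg12, and in 39 of 32851 windows overall (0.119%). A match is a description of the letters and shows neither binding nor a cause.

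The 250 bases before the Alg12 start (chr15:88819319-88819568, minus strand, RefSeq, GRCm38.p6) are shown because they carry the element, which is in capitals at positions -220 to -202 from the start. Seen from Creld2, the same bases lie at -126 to -108 on the other strand.
Alg12: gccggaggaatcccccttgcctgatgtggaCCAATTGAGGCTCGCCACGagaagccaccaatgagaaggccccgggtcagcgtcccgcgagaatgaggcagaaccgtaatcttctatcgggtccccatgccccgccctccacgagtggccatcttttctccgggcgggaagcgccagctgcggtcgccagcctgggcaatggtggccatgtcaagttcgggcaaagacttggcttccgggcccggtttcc

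Alg12 had 227, 203 and 239.6 normalised counts in the Calr KO libraries and 178, 149 and 141 in the controls. All 3 Calr KO libraries were above all 3 controls. The means were 223 ± 18.3 and 156 ± 19.7 (SD, n = 3), or 1.43-fold. The log2 change was 0.52 (SE 0.13, 95% interval 0.23 to 0.81) and did not pass in limma after adjustment over all genes (adjusted p = 0.243). With any 1 library left out the change was 0.45 to 0.62, with an unadjusted p under 0.05 in each of those 6 fits. The divergent partner Creld2 had 1181, 1089 and 1182 normalised counts in Calr KO and 694, 647 and 738 in control cells. Creld2 rose 1.66-fold, a log2 change of 0.73 (SE 0.07, adjusted p = 0.00188 in limma), and it passed without each library in turn (highest adjusted p 0.0201). The call of Creld2 was lost with a single variance prior (adjusted p = 0.14). Whether the changes of Alg12 and Creld2 have a shared origin was not tested.

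**Figure D3:**
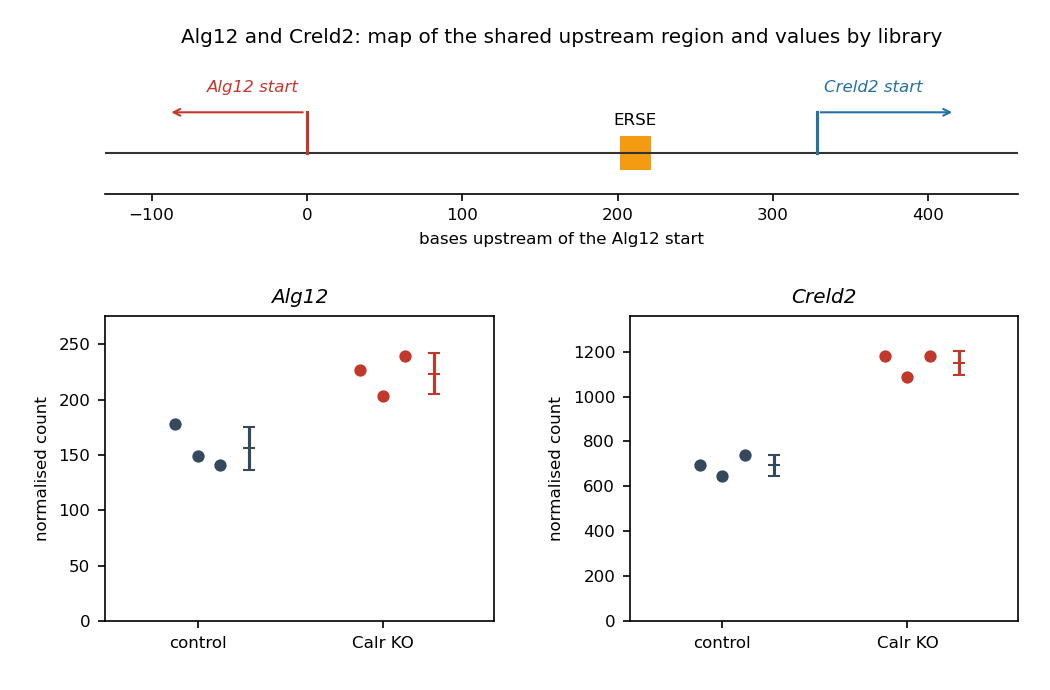
Top, the starts and reading directions of Alg12 and Creld2 and the ERSE, drawn to scale in bases upstream of the Alg12 start. Bottom, normalised counts of each library (points) with the mean and SD of 3 libraries, where the Calr KO points of Alg12 (203 to 239.6) and of Creld2 (1089 to 1182) lie above the control points (141 to 178 and 647 to 738).

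The element is rare, and the genes called here that hold it in the window encode ER proteins, among them the chaperones Hspa5 and Hsp90b1 and the protein disulfide isomerase Pdia6. Of 37 gene symbols with the motif in a window, 18 were tested, 1 of them (Ero1lb) matched through a RefSeq synonym. Among these 18, 6 were called higher (Hspa5, Hsp90b1, Pdia6, Dnajc3, Canx and Creld2) and 1 lower, the targeted Calr, where 0.197% of all tested genes were called higher and 0.0833% lower. With a single variance prior none of the 6 was called higher, and Calr alone remained called. With a library left out 5 or 6 were called higher, Canx being lost in 5 of the 6 fits. Alg12 and Creld2 count here through the same bases. The median log2 change of the 18 was 0.28, beside -0.00039 for the 9734 tested genes with a window. Estimates were above 0 in 13 of the 18 and below 0 in 5, Calr among these, beside 4856 and 4878 of the 9734. This search was chosen after the values of the members were seen, and it says nothing about binding. The motif was already known as an ER stress element, so calls among ER chaperone genes are not separate support for it or for Alg12. The sites of Alg12 and of the 6 genes called higher are set side by side, each read in the direction of the motif. The fixed ends (capitals) and the variable spacer can thus be compared, and the site of Calr, called lower, is not shown.
Alg12 and Creld2: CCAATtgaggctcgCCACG
Hspa5: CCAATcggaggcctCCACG
Pdia6: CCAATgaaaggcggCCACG
Dnajc3: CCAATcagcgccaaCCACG
Canx: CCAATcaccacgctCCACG
Hsp90b1, proximal site: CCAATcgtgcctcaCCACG
Hsp90b1, distal site: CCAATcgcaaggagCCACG

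Related elements were not found in the members. ERSE-II (ATTGG, 1 base of any kind and CCACG, both strands as for the others), the UPR element (TGACGTGG) and the ATF4-type element TGATGCAA were in 0 of the 26 windows, against 0.037%, 0.676% and 0.895% of all windows. The separate parts of the ERSE, which overlap it where it is present, were common. CCAAT was in 13 of the 26 windows against 37.4% of all windows, and CCACG in 14 against 32.8%.

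Dolichol itself is made from a polyprenol chain that a paired enzyme extends. Nus1 (ENSMUSG00000023068.16, on chromosome 10, plus strand, from 52417547 to 52440183 in GRCm38) encodes the Nogo-B receptor, the accessory subunit of the cis-prenyltransferase, and Dhdds its catalytic subunit. Nus1 had 2068, 2091 and 1929 normalised counts in Calr KO and 1674, 1762 and 1731 in control libraries, with every Calr KO library above every control. The means were 2029 ± 87.7 and 1722 ± 44.8 (SD, n = 3), or 1.18-fold. The log2 change was 0.24 (SE 0.05, 95% interval 0.13 to 0.35, adjusted p = 0.157 in limma). This was the smallest p among the members, at rank 74 of 13199 genes, and the unadjusted p stayed under 0.05 without each library in turn. Dhdds had 485, 503 and 526 against 519, 589 and 519, a log2 change of -0.10 with an interval from -0.28 to 0.08, and its groups overlapped.

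The 250 bases before the Nus1 start (chr10:52417297-52417546, plus strand, RefSeq, GRCm38.p6) are shown for comparison with Alg12, since Nus1 had the smallest p. The window holds 2 copies of CCAAT, from -193 and from -26, and 1 of CCACG, from -61, all in capitals, but no ERSE.
Nus1: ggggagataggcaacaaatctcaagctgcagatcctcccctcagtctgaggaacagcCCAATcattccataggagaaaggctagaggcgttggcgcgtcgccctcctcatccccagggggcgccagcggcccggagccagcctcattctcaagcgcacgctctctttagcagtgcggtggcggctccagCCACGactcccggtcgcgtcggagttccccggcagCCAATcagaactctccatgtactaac

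The later steps of dolichol synthesis did not pass either. Srd5a3, a reductase of dolichol synthesis, had the lowest count of the members in Calr KO cells, but not in the controls, where Dolk was lower. It had 128 ± 16.2 normalised counts in edited and 148 ± 26.3 in control cells (SD, n = 3). Its log2 change was -0.19, with an interval from -0.56 to 0.18. Dolk, which phosphorylates dolichol, had 182, 152 and 167 against 137, 137 and 157, with the lowest Calr KO library below the highest control (log2 change 0.22, interval -0.06 to 0.50, limma adjusted p = 0.679). Its divergent neighbour Nup188, a nuclear pore gene whose start is 63 bases away, had a change of 0.28 (adjusted p = 0.312). Dolpp1, which recycles dolichol after glycan transfer, ranged from 202 to 301 in Calr KO and from 196 to 264 in control.

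Dolichol-phosphate mannose is made by a synthase of a catalytic subunit, Dpm1, and the small membrane subunits Dpm2 and Dpm3. Dpm2 (ENSMUSG00000026810.12, chromosome 2, positions 32570858 to 32573579) had 422, 399.6 and 355 normalised counts in Calr KO and 338, 337 and 304 in control libraries, all 3 Calr KO libraries being higher. Its log2 change was 0.26 (SE 0.09, 95% interval 0.05 to 0.48, adjusted p = 0.476 in limma). Its unadjusted p remained under 0.05 after 3 of the 6 single-library omissions. Dpm1 held 234, 293 and 214 against 194, 203 and 212, so that the lowest Calr KO library exceeded the highest control (replicate 3) by little. Its change was 0.27 with an interval from -0.02 to 0.56 (limma adjusted p = 0.591). Reads of Dpm1 can be shared with Gm20716, an overlapping gene on the same strand that covers 11.9% of the annotated exon bases of Dpm1. Of the 31-base stretches of Dpm1, 13.98% also occur in transcripts of other genes. Gm20716 averaged 1497 normalised counts over the 6 libraries and Dpm1 225, and Gm20716 changed by -0.02 with overlapping groups. Dpm3, which tethers the catalytic subunit to the membrane, had 232, 258 and 233 against 263, 235 and 221, a change of 0.01 with an interval from -0.23 to 0.25.

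Alg5 makes dolichol-phosphate glucose, and Mpdu1 is required for the use of both lipid-linked sugars. Alg5 changed by 0.06 (interval -0.14 to 0.26) and Mpdu1 by 0.03 (interval -0.25 to 0.32) on the log2 scale. The estimates of all 5 genes in this group were above 0, as were those of 6617 of the 13199 tested genes, with a median of 0.06 and 0 called. Those of Dpm3 and Mpdu1 changed sign in some fits with a library left out.

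Partner subunits, homologues and enzymes of successive steps were compared inside each library, where scaling between libraries cancels. The log2 ratio of Nus1 to Dhdds counts was 2.09, 2.05 and 1.87 in Calr KO and 1.69, 1.58 and 1.74 in control libraries, a difference of 0.34 without overlap. The ratio of Dpm2 to Dpm3 was 0.86, 0.63 and 0.60 against 0.36, 0.52 and 0.46, also without overlap. Of 8 such ratios, chosen after the values were seen, the third without overlap was that of Alg12 to Alg9, at -0.67, -0.63 and -0.26 against -0.76, -1.25 and -1.22. For each of these 3 ratios the exact permutation p, two-sided, was 0.1 (adjusted p = 0.267 over the 8). That is the smallest that 3 libraries against 3 allow. Nus1, Dpm2 and Alg12 already lay apart between the groups by themselves, so these ratios are not separate evidence. No share over other gene pairs was computed. The ratios of Alg13 to Alg14, Gmppa to Gmppb, Pmm1 to Pmm2, Alg6 to Alg8 and Dpm1 to Dpm3 overlapped, with differences of -0.07, -0.12, 0.0070, 0.40 and 0.26.

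GDP-mannose, the donor for the cytosolic mannoses and for dolichol-phosphate mannose, starts from fructose or mannose phosphates. Mpi (ENSMUSG00000032306.14, chromosome 9, positions 57544256 to 57552763), the isomerase that links mannose to glycolysis, had 293, 279.9 and 293 normalised counts in Calr KO and 337, 328 and 324 in control libraries. Every Calr KO library was below every control. The log2 change was -0.19 (SE 0.08, 95% interval -0.37 to -0.0064, adjusted p = 0.547 in limma). Its spread between wells was 0.41 times the spread that counting of reads alone gives, the lowest such ratio of the 31 genes, and its unadjusted p was above 0.05 whichever library was omitted.

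The phosphomannomutases and the pyrophosphorylase subunits overlapped between the groups. Pmm2, the mutase whose loss underlies the most common congenital disorder of glycosylation, had 335, 279 and 344 against 301, 272 and 319, and its homologue Pmm1 had 515, 447 and 503 against 409, 496 and 455. Their log2 changes were 0.10 (interval -0.15 to 0.35) and 0.11 (interval -0.11 to 0.32). Gmppb, the catalytic subunit that forms GDP-mannose, had 236, 190.3 and 198 against 185, 169 and 196, with a change of 0.17 (interval -0.10 to 0.45). Gmppa, its regulatory subunit, had 836, 847 and 867 against 838, 795 and 829.5, with a change of 0.05 (interval -0.08 to 0.18). Annotated exons of Rnf123 on the opposite strand cover 33.6% of the exon bases of Gmppb. No source used here states whether counting used strand, so it is not known whether reads of such pairs were told apart.

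The hexosamine pathway, which makes UDP-GlcNAc and is a known target of the XBP1 arm of the unfolded protein response, showed no call in its 4 genes. Gfpt1, its rate-limiting enzyme, had 1224, 1105 and 1361 normalised counts in Calr KO and 1124, 1184 and 1645 in control libraries. The highest value of all 6 was in control replicate 3, and the groups overlapped. Its log2 change was -0.08 (95% interval -0.39 to 0.22, limma adjusted p = 0.902), and without control replicate 3 it was 0.09. Gnpnat1, the acetyltransferase of the next step, had 264, 235 and 283 against 262, 234 and 328, also highest in control replicate 3 (change -0.06, interval -0.37 to 0.24). Exons of Styx on the opposite strand cover 81.9% of the exon bases of Gnpnat1, and 8.78% of its 31-base stretches occur in transcripts of other genes, a share of at most 2.83% in the members other than Dpm1.

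Pgm3 and Uap1 complete the pathway. Pgm3, the phosphoacetylglucosamine mutase, had 295, 284 and 321 against 283, 275 and 308 (change 0.05, interval -0.16 to 0.26). Uap1, which joins the sugar to UDP, had 1358, 1447 and 1433 against 1489, 1422 and 1407. Its change of -0.03 had an interval from -0.14 to 0.09, among the narrowest of the members. The median over the 4 genes was -0.05.

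On the cytosolic face, all 6 genes had estimates below 0, as had 6582 of the 13199 tested genes, and none was called. The estimate of Alg14 changed sign in some fits with a library left out. The median log2 change was -0.13, and the range was -0.17 to -0.08. Dpagt1, the target of tunicamycin, starts the glycan by placing GlcNAc phosphate on dolichol phosphate, and it had 233, 271 and 264 normalised counts against 291, 232 and 305. Alg13 and Alg14 together add the next GlcNAc, and they changed by -0.15 (interval -0.41 to 0.11) and -0.08 (interval -0.48 to 0.33). Alg1, which adds the first mannose, changed by -0.17 (interval -0.45 to 0.11), and Alg11, which adds the last cytosolic mannoses, by -0.17 (interval -0.50 to 0.16). Alg2, which adds the mannoses between these steps, was the only gene of the group whose libraries did not overlap, with 556, 524 and 568 in Calr KO and 585, 613 and 576 in control (change -0.11, interval -0.26 to 0.05, limma adjusted p = 0.722). The translocon gene Sec61b, whose start lies 325 bases from that of Alg2 in the opposite direction, changed by -0.13 (interval -0.26 to 0.0074, adjusted p = 0.588).

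Of the neighbours read in the opposite direction from a start within 1000 bases, 10 were tested. Besides Creld2 none was called, and 3 lay entirely higher (Creld2, Nup188 and Exosc8, near Alg5) and 2 entirely lower (Sec61b and Atp7b, a copper transporter gene near Alg11), beside 7.57% and 7.28% of all tested genes. The log2 change of Atp7b was -0.27 and that of Exosc8 0.09 (limma adjusted p = 0.56 and 0.666). The other neighbours overlapped between the groups, and 3 of them had an estimate of opposite sign to their member. These were Mocs3 near Dpm1 (-0.08), Rwdd2a near Pgm3 (-0.09) and Eef1akmt4 near Alg3 (-0.0068). Tmem186 near Pmm2 changed by 0.05 and 1110032A03Rik near Alg9 by -0.32.

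In the lumen, the mannosyltransferases Alg3 and Alg9 differed little. Alg3, which adds the first luminal mannose, changed by 0.09 (interval -0.14 to 0.31) and Alg9, which acts before and after Alg12, by -0.03 (interval -0.28 to 0.21). Of the glucosyltransferases, Alg6 adds the first glucose, Alg8 the next and Alg10b the terminal glucose that oligosaccharyltransferase recognises. Alg6 had 432, 484 and 254 normalised counts in Calr KO and 369, 267 and 212 in control libraries. Its estimate of 0.45 came with the widest interval of the 31 genes, from -0.12 to 1.02 (limma adjusted p = 0.67), and Calr KO replicate 3 lay below 2 of the controls. Without that library the estimate was 0.73 with an adjusted p of 0.43. Alg8, the homologue of Alg6, had 371, 271 and 335 against 298, 308 and 331 (change 0.05, interval -0.22 to 0.32). Alg10b had 1826, 1767 and 1791 against 1705, 1826 and 1726, a change of 0.03 with an interval from -0.07 to 0.14.

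The wells differed more for some members than reads alone would give. The median ratio of the SD between wells to the SD of counting was 1.51 over the 31 genes, beside 1.64 over the 8753 tested genes with a mean of 100 to 2500. The ratio was highest for Gfpt1 (6.19) and Alg6 (5.59), and it was 3.99 for Alg11 and 3.19 for Alg13. For Alg12 it was 1.38 and for Nus1 1.61.

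Levels in control cells were compared per kilobase of the principal GENCODE M21 transcript. They ran from 67.9 ± 4.97 for Gmppb to 630.5 ± 18.9 for Uap1 (SD, n = 3). Uap1 was followed by Gmppa at 485 ± 13.5. Alg13, Dpm2, Nus1 and Pmm1 came next, at 399 ± 37.3, 375 ± 22.4, 374 ± 9.73 and 349 ± 33.3, and these neighbours did not differ beyond their spread. At the low end stood Gmppb, Dolk (68.2 ± 5.66) and Alg12 (73.2 ± 9.25), likewise within their spread, then Srd5a3 at 84.5 ± 15.0 and Dpm1 at 88.5 ± 3.97. Gmppa was thus several times its catalytic partner Gmppb, and Pmm1 exceeded Pmm2 (161 ± 12.6). The isoforms counted are not known here. With the union of all annotated exons as length, Uap1 stayed the highest, while Alg13 moved from the third place to the 14th and Dpm1 became the lowest, so the order depends on the length used.

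**Figure D4:**
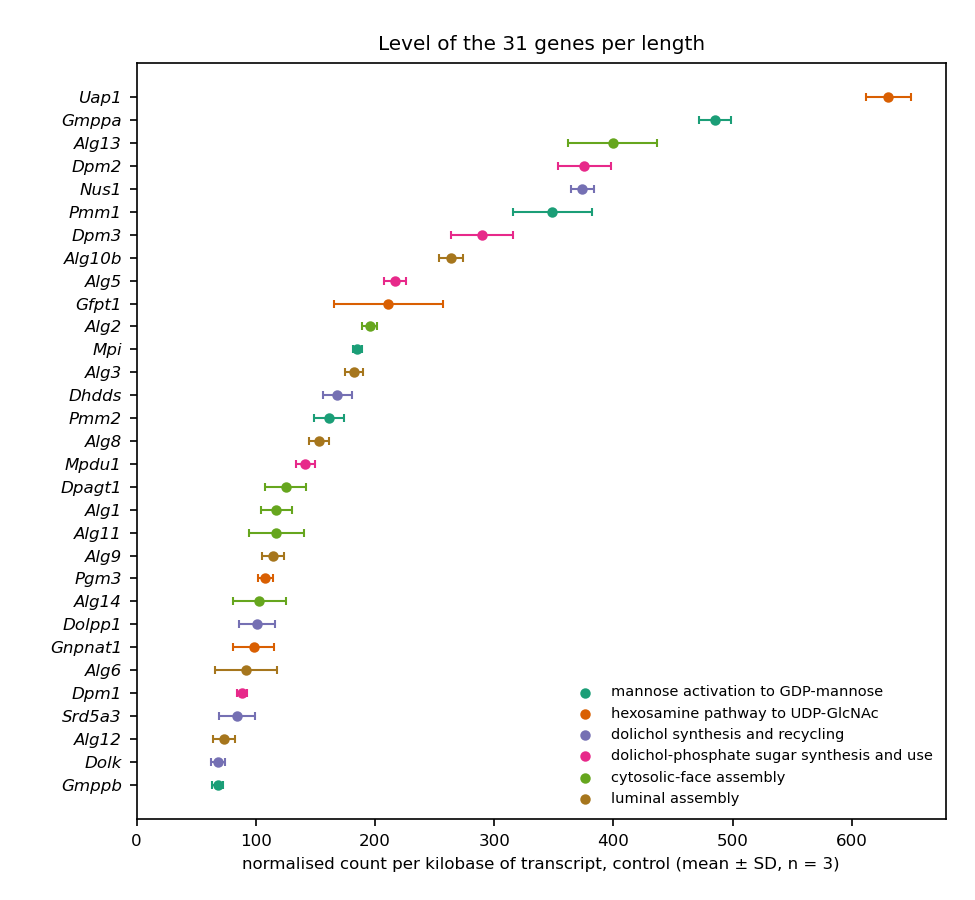
Normalised counts per kilobase of principal transcript in control cells (mean ± SD of 3 libraries) for the 31 genes, coloured by role group. Uap1 and Gmppa lead, and Alg12 is among the 3 lowest.

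Other genes of the pathway were taken from 8 lists chosen by function, with 75 tested genes. In these, 2 were called higher and 1 lower, again beside 0.28% of all tested genes called in either direction. At an unadjusted p under 0.05 there were 13, or 17.3% beside 8.88%, and 17 had groups that did not overlap, or 22.7% beside 14.8%. The called genes lay downstream of glycan assembly. Of 12 oligosaccharyltransferase subunits, which transfer the finished glycan, Rpn1 rose by 0.41 and Magt1 by 0.33 on the log2 scale (limma adjusted p = 0.0116 and 0.0364), and 10 did not pass. Stt3a and Stt3b, the catalytic subunits, were among the 6 subunits whose libraries did not overlap, all on the higher side, where 7.57% of all tested genes lay. The estimates of Rpn2, Dad1 and Tusc3 were below 0, at -0.02, -0.05 and -0.05, with overlapping groups. The list's median was 0.10. Of 6 tested genes of glucose and mannose trimming, Prkcsh fell by 0.32 (adjusted p = 0.0126 in limma); it encodes the beta subunit of glucosidase II, which holds the enzyme in the ER. The calls of Rpn1, Magt1 and Prkcsh were lost in 2, 6 and 4 of the 6 single-library omissions, with highest adjusted p values of 0.0654, 0.178 and 0.08. With a single variance prior all 3 were lost (adjusted p = 0.317, 0.366 and 0.301), and with a replicate block Magt1 and Prkcsh were.

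Genes that feed the pathway or share its donors had 0 calls in each list. The 8 genes of the mevalonate pathway, which supplies the farnesyl diphosphate for dolichol, had a median of -0.03, and the smallest p was that of Fdps, whose log2 change was 0.08 (limma adjusted p = 0.534), followed by Pmvk with a change of -0.13. The 11 tested users of dolichol-phosphate mannose, of GPI anchors, O-mannosylation and C-mannosylation, had a median of -0.02. Tmtc4 had the largest estimate there, with 98.0, 114 and 80.2 against 354, 131 and 160 (change -1.01, 95% interval -1.74 to -0.28, adjusted p = 0.395), where control replicate 1 alone was far above the rest. The O-mannosyltransferase Pomt1 changed by -0.26 (adjusted p = 0.548).

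Sugar-nucleotide genes outside the members also had 0 calls. The 20 tested genes of other sugar-nucleotide synthesis and salvage had a median of 0.0026, with Ugdh, which makes UDP-glucuronate, at 0.14 (limma adjusted p = 0.509) and Fpgt at -0.13. The O-GlcNAc transferase Ogt changed by -0.11 (adjusted p = 0.53) and its counterpart Oga by -0.0065. Of 5 genes of sugar phosphate supply, Hk1 and Gpi1 changed by -0.07 and -0.08. The 11 Slc35 genes listed as nucleotide-sugar transporters had the highest list median, 0.15, and the transport function of each was not tested. Slc35b1 changed by 0.34 (limma adjusted p = 0.437, groups apart). The CMP-sialic acid transporter Slc35a1 changed by 0.41 (limma adjusted p = 0.503, groups overlapping).

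**Figure D5:**
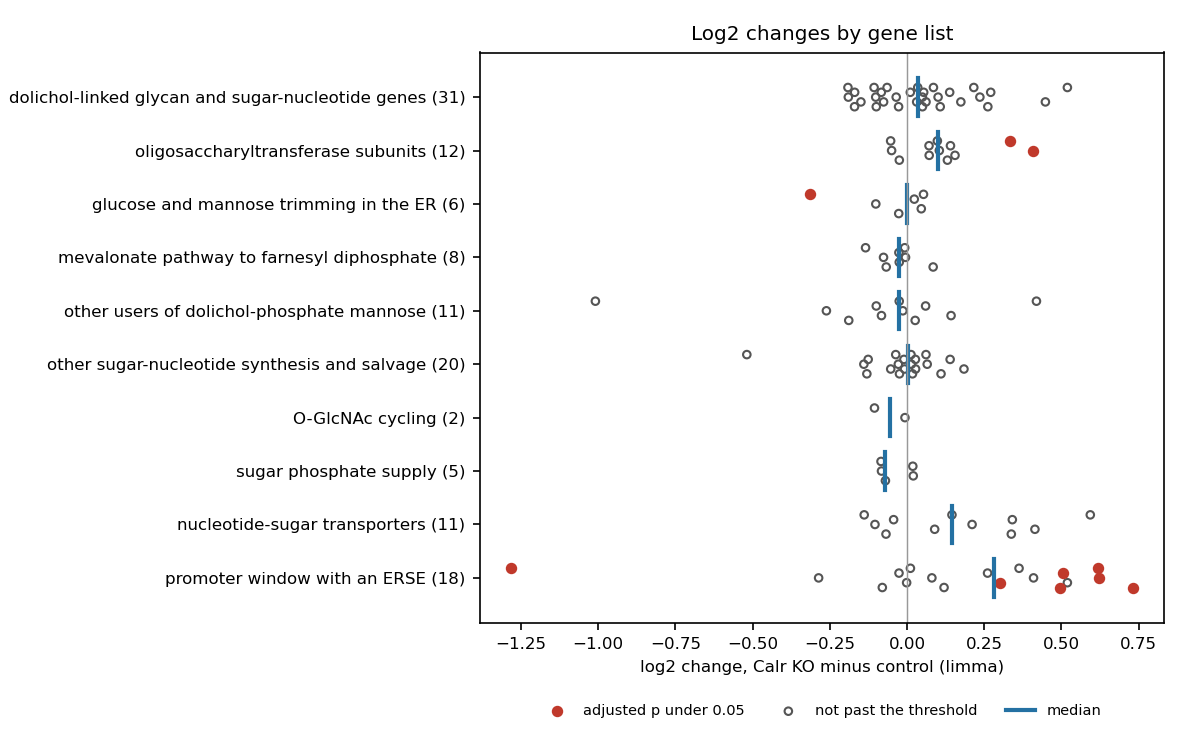
Each point is the log2 change of 1 gene, Calr KO minus control, by list, with the number of genes in brackets, filled where the adjusted p was under 0.05, and a bar at the median. The 31 members show no filled point, Rpn1, Magt1 and Prkcsh are filled in the lists downstream of assembly, and 7 of 18 genes with an ERSE in the promoter window are filled, with Calr at -1.28.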

How the data were processed

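RNA of 3 Calr KO and 3 control wells of LLC cells went through a SMARTER mRNA-seq preparation, per the labels' protocols, and the labels place every library in batch 1. The values are a deposited signal, which the authors made by normalising gene counts in DESeq2, per the labels. The tools listed are STAR 2.6.1d and Salmon 0.14.1 besides DESeq2 1.34.0, with build mm10 and no role for any, per the submitters' processing notes. Neither the annotation release nor the use of strand is stated in the sources used here.

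The most frequent value between 0.5 and 1.5 served as the worth of a read in each library. Of values under 1.5 reads, 79.3% to 82.9% were whole multiples of it within 0.02, but of values of 100 to 1000 reads only 3.44% to 4.31%. Whole reads were therefore not recovered, and tests for counts were not used. Comparisons with counting spread cover counting error only.

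Values were analysed as log2(value + 1), which understates the change of low genes, in limma 3.58.1 (R 4.3.3), two-sided, with a prior variance following mean level, over the 13199 genes with a mean of at least 10. Ratios were tested by exact permutation. The members and lists were chosen with earlier results of these data known, and 1 list is not reported here. All members were named, with values by library where the unadjusted p was under 0.05, the groups lay apart or a close homologue was a member, and for further members where a step is described. Related genes were named if called, otherwise the 2 of smallest p per list; the subunits Stt3a and Stt3b and the neighbour and ERSE genes were added after their values were seen. Gene models and IDs are from GENCODE M21 (GRCm38, the assembly behind mm10), matched by symbol, and promoter windows from RefSeq (GRCm38.p6). Alternatives were pseudocounts of 0.5 and 5, a mean of at least 1 or 50 or no filter, TMM and upper quartile scaling, other variance priors, a replicate block, and omission of every library singly.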

Additional observations from a re-analysis of the deposited data

How the results depend on the processing

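Over 16 alternative settings 0 of the 31 members passed in any, with 496 member values computed. The members' median stayed between 0.0168 and 0.0697 in all of them. When the variance prior did not follow the mean level, 2 genes passed in all instead of 37, and 0 related genes instead of 3. With a library left out, 20 to 34 genes passed in all and 0 to 2 related genes. The lowest counts were without Calr KO replicate 1, which gave 20 genes and 0 related genes. Leaving out Calr KO replicate 3 gave 21, and leaving out control replicate 2 or 3 gave 22. The cause was not tested, though each of the fits without a library has fewer samples.

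Of the members, 9 had an estimate that changed sign with a library left out, all of them small and uncalled. Their ranges were -0.267 to 0.0443 for Alg14, -0.0495 to 0.176 for Alg8, -0.123 to 0.0440 for Alg9, -0.000158 to 0.287 for Dolpp1 and -0.0458 to 0.0804 for Dpm3. They were -0.187 to 0.0873 for Gfpt1, -0.171 to 0.0697 for Gnpnat1, -0.0611 to 0.139 for Mpdu1 and -0.0449 to 0.000994 for Uap1. The other 22 kept their sign in every setting run.

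The deviations of same-numbered wells had correlations of -0.0555, -0.0108 and 0.0014 over genes, beside -0.0435 to 0.0534 for differently numbered wells. Whether same-numbered wells were handled together was not tested, and the main fit used no pairing. With the replicate block, 26 genes passed in all, 0 members and 1 related gene, Rpn1. The highest library had 174 normalised counts for Srd5a3 and 182 for Dolk. The spread between wells was 1.86 times that of counting for Srd5a3 and 1.09 times for Dolk. The source of this spread was not tested.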
